A study of Mus musculus with 4 samples.

Results

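This account describes the CpGs that carried C or G on both sides, apart from those in the MspI site CCGG, in the first whole-genome library of a study by methylation-assisted bisulfite sequencing (MAB-Seq). The cells were E14, a line of mouse embryonic stem cells. The CpGs were chosen by sequence alone, from the 5 bases deposited for each listed CpG. The letters around the CpG had to read GCGC, GCGG or CCGC, which left 83044 of 331875 listed CpGs. Genomic DNA of 4 libraries was analysed. Both whole-genome libraries (labelled MAB-Seq and MAB-Seq_rep2) came from wild-type cells, with DNA sheared by sonication. The other libraries were made from DNA cut with MspI (reduced representation). In 1 of them the cells carried a control shRNA, and in the other an shRNA that targets Tdg. The labels give no clone, passage or culture for any of them. The second whole-genome library listed 118502 cytosines, of which 59265 lay on the plus strand. The lists of the control and Tdg shRNA libraries held 12895 and 8948. All positions are in the mouse build mm9. No gene annotation of that build was used here.

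In mammalian cells, TET enzymes oxidise 5-methylcytosine to 5-hydroxymethylcytosine, 5-formylcytosine and 5-carboxylcytosine, and the glycosylase TDG removes 5-formylcytosine and 5-carboxylcytosine, after which repair restores an unmodified cytosine. MAB-Seq reads the forms that TDG removes. The bacterial enzyme M.SssI first methylates the unmodified CpGs, and bisulfite then converts only 5-formylcytosine, 5-carboxylcytosine and any CpG that the enzyme missed. The level of a CpG is the percentage of its reads that were converted, after the authors subtracted a background. CpGs with C or G on both sides are typical of CpG islands, the CpG-dense stretches at many promoters, which stay largely unmethylated in stem cells. M.SssI acts on CpGs whatever their flanks, and MspI cuts only at CCGG, so the sites described here are not cut.

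The 12 sequences of 5 bases that fall under the rule are shown because the results below differ between them. They are read on the plus strand, 5′ to 3′, and the capitals mark the CpG.
Context GCGC after A: agCGc
Context GCGC after C: cgCGc
Context GCGC after G: ggCGc
Context GCGC after T: tgCGc
Context GCGG after A: agCGg
Context GCGG after C: cgCGg
Context GCGG after G: ggCGg
Context GCGG after T: tgCGg
Context CCGC after A: acCGc
Context CCGC after C: ccCGc
Context CCGC after G: gcCGc
Context CCGC after T: tcCGc
The context GCGC equals its own reverse complement, and GCGG and CCGC are reverse complements of each other, so that a GCGG on the plus strand is a CCGC on the minus strand. The list held 30969 GCGG, 27571 GCGC and 24504 CCGC, or 37.3%, 33.2% and 29.5% of the 83044.

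Where listed CpGs lay so close that their 5-base sequences overlapped, the sequences could be joined into longer ones. This gave 1787 stretches made up of these CpGs alone, and the letters of overlapping sequences never disagreed. The 6 stretches with the most CpGs on chromosomes other than 18 are printed because they show the tracts of alternating C and G that recur in the results. Capitals mark the listed CpGs.
chr7:28408404-28408432: tgCGCGCGCGCGCGCGCGCGCGggCGCGg
chr9:99650225-99650251: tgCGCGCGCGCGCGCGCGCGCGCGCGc
chr4:139384222-139384246: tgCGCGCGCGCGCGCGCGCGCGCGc
chr7:146151933-146151959: tgCGCGCGCGCGCGCGCGCGCGggCGc
chr14:32966005-32966029: tgCGCGCGCGCGCGCGCGCGCGCGg
chr2:49878131-49878153: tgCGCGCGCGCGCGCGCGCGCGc
All 6 begin with TG on the plus strand. The choice bears on this, since each stretch had to hold CpGs of the group alone. A tract that followed CA was left out whenever its first CpG was listed, because ACGC lies outside the group. The stretch on chromosome 9 had 12 CpGs with levels of 23.6% to 73.0%, and none of them was in another list. The first stretch, on chromosome 7, also had 12 CpGs, with levels of 49.0% to 76.8%, and the second whole-genome library listed all 12 on the plus strand and none on the minus strand. On chromosome 14 the first 6 CpGs were at 100% and the following 5 between 32.5% and 54.5%. The stretch on chromosome 4 fell from 68.8% at its first CpG to 29.9% at its last, and 7 of its 11 CpGs were listed in the second library. No CpG of the other stretch on chromosome 7, or of those on chromosomes 14 and 2, was in another list.

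CpGs with C or G on both sides made up less of the list than of the CpGs in promoters. They were 25.02% of the first list and 42.0% of 403717 CpGs in the 32817 RefSeq promoter windows of build GRCm38.p6 (250 bases before to 50 after each gene's start). GCGG, CCGC and GCGC were 14.3%, 14.4% and 13.2% of promoter CpGs and 9.33%, 7.38% and 8.31% of the list. CpGs with A or T on both sides went the other way, with 9.83% in promoters and 17.3% in the list. Promoters are not the genome, and the CpGs covered by reads are unknown, so these shares are no enrichment. Across the autosomes and X, the share ranged from 23.2% on chromosome 1 to 26.4% on chromosome 11. On the unplaced contigs of mm9 (chrUn_random) it was 6.36%, or 117 CpGs.

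Median levels were alike, but more of these CpGs stood at 0 and more stood above 20%. The median level was 11.2% (95% interval 11.1% to 11.3%) with C or G on both sides and 11.1% (11.1% to 11.2%) in all other listed CpGs. Of the 83044, 18520 or 22.3% (22.0% to 22.6%) were listed at 0, against 19.3% (19.1% to 19.5%) of the others and 20.1% of the whole list. The difference was 3.00 percentage points (2.68 to 3.32). Without the CpGs at 0, the median was 14.3% (14.1% to 14.4%) against 13.5% (13.4% to 13.5%). The upper quartile was 20.1% against 19.2%, but 18.97% in both without CpGs that had another listed CpG 2 bp away. At 100% stood 1.30% (1.23% to 1.38%) of these CpGs against 1.53% of the others, where the whole list had 1.47%. All comparisons of levels lie within 1 library, so no p-value was computed. The intervals cover counting error only and take sites as independent, which neighbours on the same reads are not.

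**Figure D1:**
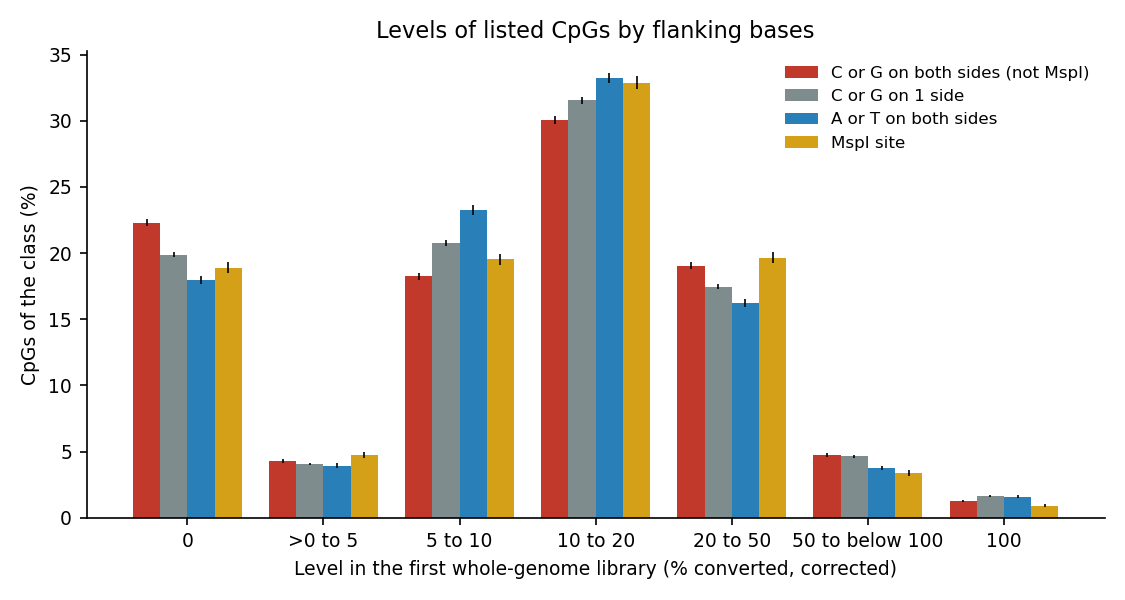
Share of listed CpGs (y axis, percent of the class) in each range of level in the first whole-genome library (x axis, percent converted after correction), by flanking bases; error bars are exact 95% binomial intervals. CpGs with C or G on both sides have the highest bar at 0 (22.3%) and the lowest from 5 to 10% (18.2%) and from 10 to 20% (30.0%).

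The middle ranges were thinner. Levels above 5% and up to 10% held 18.2% of these CpGs and 21.2% of the others, and levels above 10% and up to 20% held 30.0% and 32.1%. Above 20% and up to 50% the order turned, with 19.1% (18.8% to 19.3%) against 17.5% (17.3% to 17.6%). Between 50% and 100%, leaving out 100% itself, it was 4.73% (4.59% to 4.88%) against 4.28% (4.20% to 4.36%). The excess above 20% went largely with CpGs that had another listed CpG 2 bp away. Leaving these out of both classes was tried after the data had been seen. The upper quartile then no longer differed, at 18.97% in both classes. The share above 20% and up to 50% was 18.6% (18.3% to 18.8%) against 17.4% (17.3% to 17.6%), and between 50% and 100% the order turned, with 3.43% (3.30% to 3.56%) against 4.14% (4.06% to 4.22%). The share at 0 was higher than in the other CpGs on 19 of 20 chromosomes, all but X, with differences from -0.23 to 4.69 points. With all CpGs kept, the upper quartile was higher on 19 of 20, all but chromosome 1. The median was higher on 12, equal on 3 and lower on 5.

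CpGs with A or T on both sides had the lowest share at 0 of the 4 classes, 17.98% (17.7% to 18.3%), and an upper quartile of 18.2%. CpGs with C or G on 1 side lay between, with 19.9% at 0 and 19.4%. The MspI sites, which also have C on one side and G on the other, had 18.9% (18.5% to 19.3%) at 0, below GCGC and CCGC and close to GCGG. Their upper quartile was 19.6%.

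The 3 contexts differed among themselves more than the group did from the rest. CCGC had 26.4% (25.8% to 26.9%) at 0, GCGC 22.8% (22.3% to 23.3%) and GCGG 18.6% (18.2% to 19.05%). GCGC had the highest upper quartile, 23.1%, against 19.5% for CCGC and 18.6% for GCGG. It also stood most often at 100%, in 1.90% (1.74% to 2.06%), against 1.11% for GCGG and 0.877% for CCGC. Median levels were 11.8% for GCGC, 11.1% for GCGG and 10.8% for CCGC. GCGG went against the group, since all CpGs outside it had 19.3% at 0 and an upper quartile of 19.2%, both above those of GCGG.

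Among the 12 sequences, cgCGc, a CpG with another CpG just upstream, joined a high share at 0 with a high upper quartile. It was at 0 in 30.1% (29.1% to 31.2%) of 7732 cases, and its upper quartile was 28.9%, which ranked 3 among the 64 contexts in the list. The median of those above 0 was 19.8%. tgCGc reached similar levels with fewer zeros. Its median was 13.1%, its upper quartile 27.2%, and 18.2% (17.4% to 19.1%) were at 0. At the other end, agCGg and ggCGg had 16.3% and 16.6% at 0 and upper quartiles of 17.8% and 18.97%. ccCGc and cgCGg both had 29.1% at 0, without the high levels of cgCGc (upper quartiles 19.8% and 18.7%). Within CCGC the 4 first letters moved the share at 0 only from 24.5% (gcCGc) to 29.1%. Within GCGC they moved it from 18.2% to 30.1%. Neither extreme was particular to the group, since GCGT had an upper quartile of 29.7% and ACGC had 35.0% at 0.

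Listed CpGs with C or G on both sides lay closer to other listed CpGs. The nearest one was within 100 bp for 56.4% (56.1% to 56.7%) of them and for 42.1% (41.9% to 42.3%) of the others, where the whole list had 45.7%. The median distance was 69.0 bp (67.0 to 70.0) against 198 bp (194 to 202), and against 488 bp for CpGs with A or T on both sides. MspI sites had 109 bp. The share within 100 bp was higher on all 20 chromosomes, by 12.1 to 16.3 points. Unlisted CpGs are not in the files, so how far this follows the spacing of CpGs in the genome was not tested. When the nearest listed CpG was within 100 bp, it too had C or G on both sides in 42.8% (42.3% to 43.2%) of cases, against 27.0% (26.7% to 27.2%) for neighbours of other CpGs.

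Much of the closeness was at a spacing of exactly 2 bp, that is, in CGCG. Such a neighbour was listed for 7003 of these CpGs, 8.43% (8.24% to 8.62%), and for 1.14% of the others, where the whole list had 2.97%. It is impossible for CCGG and for CpGs with A or T on both sides. At 3 to 5 bp, the shares were nearer to each other, 5.52% and 4.89%. GCGC accounted for 5740 of the 7003, with 625 GCGG and 638 CCGC. For some sequences the letters alone prove that a CpG lies 2 bp upstream, and there the share that was listed can be given. It was 48.7% (47.6% to 49.8%) for cgCGc and 15.0% (13.9% to 16.1%) for cgCGg. The sequences of the same kind outside the group had 41.9% (cgCGt) and 20.9% (cgCGa).

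Zeros came in neighbourhoods. With a listed CpG within 10 bp, which 19.9% of these CpGs had against 11.7% of the others and 13.8% of the list, a CpG with C or G on both sides was at 0 in 63.3% (61.8% to 64.8%) of cases when that neighbour was at 0. It was at 0 in 11.3% (10.8% to 11.9%) when the neighbour was above 0. The other CpGs had 66.4% and 10.1%. Such neighbours share reads. By distance to the neighbour, the share at 0 in the group was 25.9% (24.7% to 27.1%) with the neighbour at 6 to 10 bp, 23.3% (22.4% to 24.1%) at 51 to 100 bp and 19.3% (18.7% to 19.8%) beyond 1000 bp. Above 100 bp and up to 1000 bp it was 22.0% (21.4% to 22.7%). The other CpGs had 23.9% at 6 to 10 bp, 17.8% at 51 to 100 bp, 19.5% (19.1% to 19.8%) above 100 bp and up to 1000 bp, and 17.8% beyond. With a neighbour at 2 bp the order turned, with 22.3% (21.3% to 23.3%) against 23.7% (22.2% to 25.3%), and these intervals overlap.

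**Figure D2:**
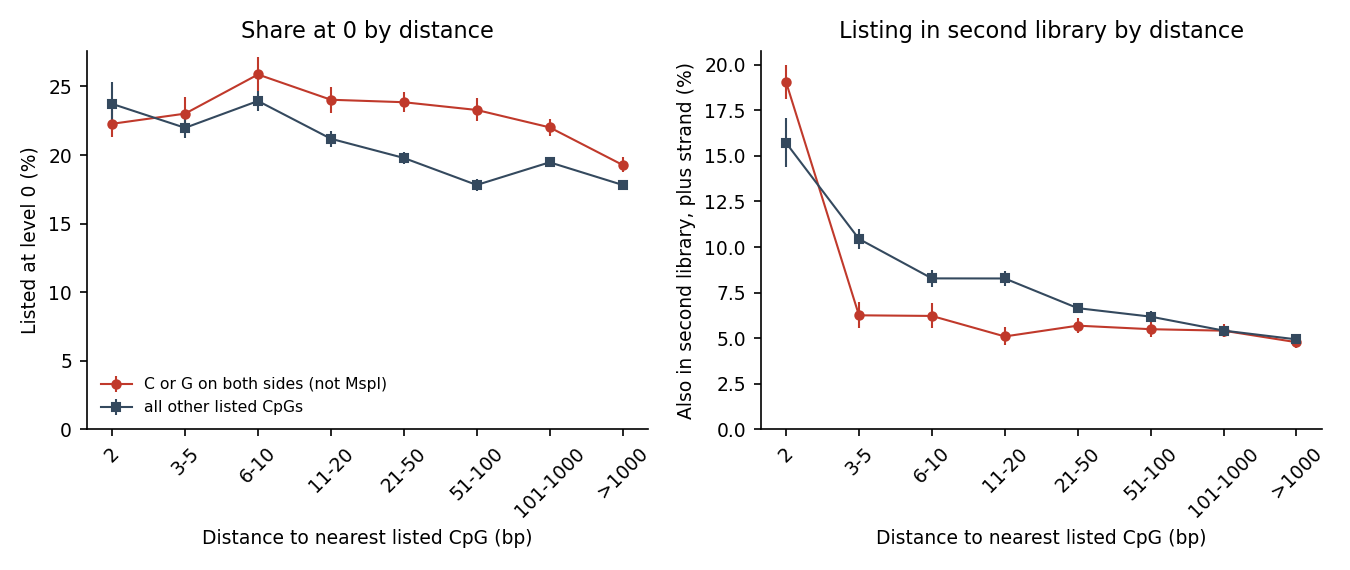
Share of CpGs at level 0 (left) and share also listed in the second whole-genome library on the plus strand (right), both in percent, by the distance to the nearest listed CpG in bp, for CpGs with C or G on both sides and all other listed CpGs; error bars are exact 95% binomial intervals. Listing in the second library reaches 19.05% at a spacing of 2 bp and is 5.10% to 6.26% from 3 to 100 bp in the group, below the other CpGs there.

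Levels rose with the length of a run of listed CpGs spaced 2 bp apart. Only listed CpGs counted towards a run, so its length depended on the calls in the same library. How far the rise followed from this was not tested. For cgCGc, which always has a CpG 2 bp upstream, the median was 18.4% where that CpG was listed and 9.28% where it was not. The plus strand of the second library held 22.3% and 4.76%. The 76041 CpGs of the group with no listed CpG 2 bp away had a median of 11.03% and quartiles of 3.81% and 18.97%. In runs of 2 and 3 the medians were 12.8% (12.2% to 13.5%) and 14.9% (13.4% to 17.3%). In runs of 4 to 9 the median was 31.5% (29.2% to 34.2%) with quartiles of 9.07% and 63.7%. In the 33 runs of 10 to 16 it was 48.9% (44.4% to 52.6%). The zeros did not thin out until the longest runs, with 25.04% in runs of 2, 23.8% in runs of 3, 20.4% in runs of 4 to 9 and 1.15% (0.315% to 2.93%) in runs of 10 or more.

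The second library listed the members of long runs more often, on the plus strand. The share was 5.38% (5.22% to 5.54%) without a run, 10.2% in runs of 2, 14.7% in runs of 3, 28.1% (26.2% to 30.1%) in runs of 4 to 9 and 66.6% (61.3% to 71.5%) in longer ones. On the minus strand it rose from 2.29% to 8.68% (7.51% to 9.97%) in runs of 4 to 9, and then 0 of 347 were listed in longer runs. Taking the CpGs as independent, this allows a share of up to 0.865% by 3 counts of the total and 1.06% by the exact interval. The 347 CpGs lay in only 33 runs, however, and CpGs of a run share reads. These limits, and all intervals for CpGs in runs, are therefore too narrow. Runs of 4 or more held 2455 of the CpGs, 2.96% of the group. They lay on more than 1 chromosome: without chromosome 4, which held more of them (255) than any other, the median was 24.4 points above that of the other CpGs of the group, against 24.1 points with it.

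**Figure D3:**
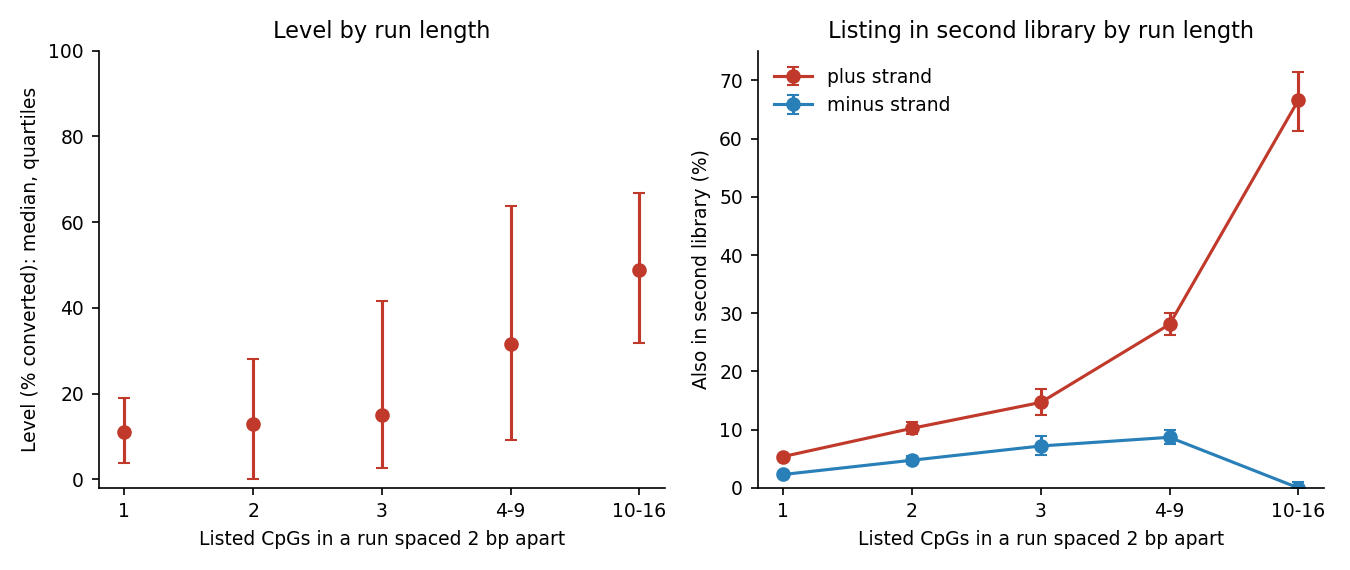
CpGs with C or G on both sides, by the number of listed CpGs in a run spaced 2 bp apart (x axis): left, median level with quartile bars (percent converted, corrected); right, percent also listed in the second whole-genome library on each strand with exact 95% intervals. The median rises from 11.03% to 48.9% and plus-strand listing from 5.38% to 66.6%, while minus-strand listing is 0 in the longest runs.

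What preceded a run went with the strand. Of the 497 runs of 4 or more, 305 began with tgCGc, so that the tract followed TG on the plus strand. Their 1577 CpGs of the group had a median of 44.8% (42.2% to 47.2%) and 3.04% (2.25% to 4.02%) at 0. The second library listed 40.2% (37.8% to 42.7%) of them on the plus strand and 0.254% (0.0692% to 0.648%) on the minus strand. In contrast, 86 runs began with caCGc, so that the tract followed CA. There the median of 373 CpGs was 0 and 71.3% (66.4% to 75.9%) were at 0. The second library listed 12.9% (9.64% to 16.7%) on the plus and 34.0% (29.2% to 39.1%) on the minus strand. In 54 of these 86 runs every CpG of the group was at 0, and so in 3 of the 305 runs after TG. The remaining 106 runs lay between, with a median of 28.0%, 27.9% on the plus strand and 10.3% on the minus strand. This split was made after the values had been seen.

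Along a run the first CpG tended to be higher than the last. In the 497 runs of 4 or more, the median was 40.4% at the 5′ end of the plus strand and 29.9% at the 3′ end. The first was higher in 234 runs, lower in 169 and equal in 94, of which 83 had both ends at 0. Among the unequal ones 58.1% (53.1% to 62.9%) were higher at the first. By length, the medians at the first and last CpG were 35.2% and 31.8% in runs of 4, 44.5% and 21.6% in runs of 5, and 41.4% and 31.3% in runs of 6. End CpGs outside the group are included in these values, and in runs of 5 only 48.3% of the last CpGs belonged to it.

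Without such a neighbour GCGC was close to the other contexts. Without a listed CpG 2 bp away, 21831 GCGC had a median of 10.9% (10.8% to 11.03%) and an upper quartile of 19.4%, against 21.4% (20.3% to 22.4%) and 52.4% for the 5740 with one. The share at 0 barely moved, 23.1% (22.5% to 23.6%) against 21.8% (20.7% to 22.9%). tgCGc showed the widest gap, with a median of 39.6% and 5.07% at 0 beside a listed CpG at 2 bp and of 11.3% and 20.99% without. GCGG and CCGC, which can have such a neighbour on 1 side only, had medians of 11.2% and 12.1% with it and 11.1% and 10.8% without.

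Only for GCGC did listing in the second library rise with such a neighbour whichever strand was read. Its plus-strand share was 22.1% with it and 5.14% without, and its minus-strand share 6.81% and 2.16%. GCGG fell on the plus strand (5.44% against 6.59%) and rose on the minus strand (3.36% against 1.52%). CCGC rose on the plus strand (5.02% against 4.05%) and fell on the minus strand (1.88% against 3.41%). On the plus strand the second library held 5423 of the 83044 CpGs, 6.53% (6.36% to 6.70%), against 6.22% (6.13% to 6.32%) of the others and 6.3% of the list. CpGs with C or G on 1 side were close to the group, with 6.50% (6.38% to 6.62%). Those with A or T on both sides had 6.26% and MspI sites 4.85%. The excess over all others, 0.31 points (0.118 to 0.504), turned to -0.73 points when CpGs with a listed CpG 2 bp away were left out on both sides. This alternative was added after the data had been seen, and for listing it was run on the plus strand only. On the minus strand the second library held 2168, or 2.61% (2.50% to 2.72%), against 2.10% (2.04% to 2.16%) and 2.23% of the list. With only p-values at or below 0.0001 in the second library this difference shrank from 0.511 to 0.0377 points. Both strands were listed for 100 of the CpGs, 0.120% (0.0980% to 0.146%), against 0.203% (0.185% to 0.221%) of the others. The highest plus-strand shares in the group were those of cgCGc with 13.3%, tgCGc with 10.02% and ggCGg with 8.52%, beside 11.6% for GCGT outside it.

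GCGG and CCGC, the 2 strands of the same site, were listed unequally. On the plus strand the second library held 6.56% (6.29% to 6.85%) of GCGG and 4.08% (3.83% to 4.33%) of CCGC. On the minus strand it held 3.37% (3.14% to 3.60%) of the CpGs that read CCGC on the plus strand, where the minus strand reads GCGG, and 1.55% (1.42% to 1.70%) of those that read GCGG. Among CpGs of the first list, cytosines in GCGG were thus listed more often than cytosines in CCGC on each strand of the second library. At the CpGs that read CCGC on the plus strand, however, the plus-strand cytosine was listed more often (4.08%) than the minus-strand one (3.37%).

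CpGs at 0 in the first library were found on the opposite strand of the second. Of the 18520 at 0, 7.60% (7.22% to 7.99%) were listed there on the minus and 0.832% (0.706% to 0.973%) on the plus strand. The other CpGs at 0 were alike, with 7.21% (6.98% to 7.45%) and 0.945% (0.861% to 1.04%). At levels above 10% and up to 20% it was the other way round in the group, with 0.690% (0.591% to 0.800%) and 6.96% (6.64% to 7.28%). Seen from the second library, 2068 CpGs were listed on the minus strand only, and 67.3% (65.2% to 69.3%) of these were at 0 in the first. Of the 5323 on the plus strand only, 2.59% (2.18% to 3.06%) were at 0. The other CpGs had 70.4% (69.1% to 71.7%) and 2.10%. Within the group, the share at 0 among those listed on the minus strand only was 74.5% for GCGC, 67.2% for GCGG and 59.7% (56.2% to 63.1%) for CCGC. The first list gave plus-strand cytosines only, and by which rule it came to hold CpGs at 0 is not given in the sources used here.

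**Figure D4:**
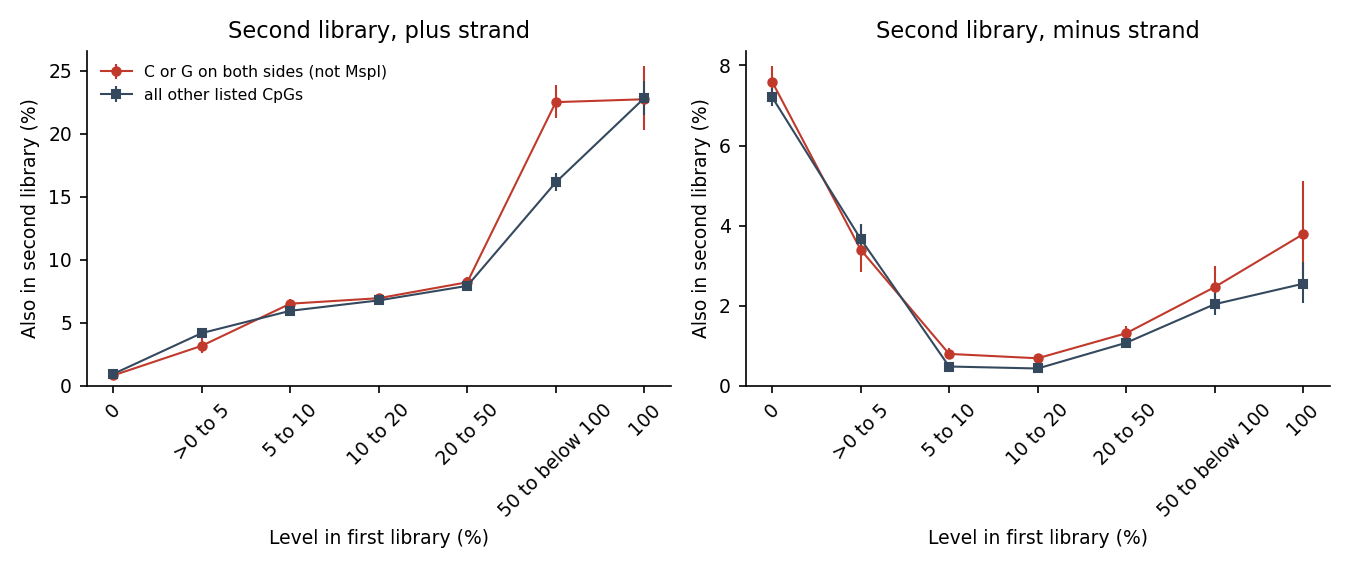
Share of CpGs also listed in the second whole-genome library on the plus strand (left) and minus strand (right), in percent, by level in the first library (percent converted, corrected); error bars are exact 95% binomial intervals. For CpGs with C or G on both sides, plus-strand listing rises from 0.832% at level 0 to 22.5% between 50 and 100%, and minus-strand listing is highest at level 0 (7.60%).

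At matched levels, plus-strand listing was close in the group and the others in most ranges. Above 20% and up to 50%, 8.22% (7.80% to 8.66%) and 7.93% (7.68% to 8.19%) were on the plus strand of the second library, and at 100% 22.7% and 22.8%. Between 50% and 100% the group was higher, with 22.5% (21.2% to 23.8%) against 16.1% (15.5% to 16.9%). Above 0 and up to 5% it was lower, with 3.18% (2.63% to 3.81%) against 4.19% (3.81% to 4.59%). On the minus strand the group was higher in the ranges that held most of its CpGs above 0. Above 5% and up to 10% the share was 0.798% (0.663% to 0.953%) against 0.484% (0.426% to 0.547%), and above 10% and up to 20% it was 0.690% (0.591% to 0.800%) against 0.434% (0.390% to 0.482%).

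Calls of the second library were stronger in the group on the plus strand and weaker on the minus strand. Of its 5423, 30.5% (29.3% to 31.7%) had a p-value at or below 1e-07, against 26.6% (25.9% to 27.3%) of the others. On the minus strand it was 24.6% in the group and 32.4% in the others. By context, the share was 50.1% for GCGC, 16.3% for GCGG and 12.5% for CCGC on the plus strand, and 40.8%, 10.6% and 15.9% on the minus strand. GCGC was thus above the others on both strands, and GCGG and CCGC were below them on both. The strongest plus-strand calls of the group had a median level of 60.6% in the first library (quartiles 35.5% and 86.0%), and those with p above 0.001 had 12.3%. Read numbers recovered from the p-values (69.5% of the 5423) had a median of 15 and quartiles of 11 and 21 in the group and in the others alike. They leave out the strongest calls.

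The reduced-representation libraries held few of the CpGs. Because the strand of their positions is unknown, either cytosine of a CpG counted. The control shRNA library listed 282, or 0.340% (0.301% to 0.382%), against 0.225% (0.207% to 0.245%) of the others and 0.254% of the list. The Tdg shRNA library listed 251, or 0.302% (0.266% to 0.342%), against 0.326% (0.304% to 0.350%) and 0.32%. The difference in the Tdg shRNA library was -0.024 points (-0.066 to 0.0211), and it became 0.0227 points without the 12 windows of 10 kb that held the most sites shared by both whole-genome libraries. Of the other CpGs listed with Tdg shRNA, 15.3% lay in those windows, and of the group 0.797%. MspI sites were listed in 0.0970% and 0.112% of cases. Within 100 bp of a listed position, the group was above the others in both libraries, with 4.16% (4.02% to 4.29%) against 2.15% in the control and 3.07% (2.95% to 3.19%) against 1.74% in the Tdg shRNA library. This was not particular to the group, since MspI sites had 3.42% (3.23% to 3.62%) and 2.38% (2.22% to 2.55%). Which CpGs the MspI fragments cover was not analysed.

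Where both shRNA libraries listed the same base, about as many CpGs of the group were lower as higher with Tdg shRNA. Each shRNA has 1 library, so there is no replicate check. The median was 10.5% (9.37% to 11.7%) at the 282 sites with control shRNA and 12.9% (12.1% to 14.6%) at the 251 with Tdg shRNA, but these are different sites. At the same base, 33 CpGs of the group were listed in both libraries at the plus-strand cytosine and 30 at the minus-strand cytosine. Counting either cytosine, both libraries listed 63 of the 83044 CpGs. That was 0.0759% (0.0583% to 0.0971%), close to the 0.0828% (0.0719% to 0.0949%) of the others. With Tdg shRNA 14 of the 33 were lower, 12 higher and 7 equal, with medians of 44.8% and of 44.6% with control shRNA. Of the 30, 13 were lower, 10 higher and 7 equal, with medians of 52.3% and 53.5%. The other CpGs had 53 lower and 15 higher of 94 at the plus-strand base and 68 lower and 30 higher of 116 at the minus-strand base. GCGC gave 16 of the 63 shared sites, GCGG 24 and CCGC 23. CpGs in runs of 4 or more spaced 2 bp apart gave 1 listed CpG in each library among 2455.

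All 4 libraries shared 20 of the 83044 CpGs, 0.0241% (0.0147% to 0.0372%), against 0.0446% of the others and 0.0395% of the list. Their median level was 50.6% in the first library, 53.1% with control shRNA and 52.6% with Tdg shRNA. With Tdg shRNA 8 were lower, 6 higher and 6 equal. The 8 with the lowest p-value in the second library are named here, and 4 of them had levels near 100% in both shRNA libraries at the plus-strand base. On chromosome 10 at 122231284, tgCGg was at 100% in the first library, 100% with control shRNA and 97.7% with Tdg shRNA. On chromosome 8 at 109555337, agCGc was at 100% in all 3 lists of levels, and the second library listed its minus strand. On chromosome 9 at 35112904, ggCGg was at 76.2%, 100% and 100%, with both strands listed. On chromosome 14 at 14526399, agCGg was at 84.1%, 100% and 100%.

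The others of the 8 had lower or unequal levels. On chromosome 5 at 52506981, gcCGc was at 48.5% in the first library, on the plus strand, while the shRNA libraries had its minus-strand base at 99.1% (control) and 100% (Tdg). On chromosome 10 at 83179135, tcCGc was at 0 in the first library, on the plus strand, while both shRNA libraries had its minus-strand base at 57.0% and 60.4% and the second library listed that strand. On chromosome X at 41557663, acCGc was at 59.0%, 25.1% and 23.3%. On chromosome 17 at 39983219, in a window dense in listed sites, tcCGc was at 7.32%, 14.3% and 11.6%.

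In promoters, where the unlisted CpGs are known from the sequence, CpGs with C or G on both sides were not listed more often. RefSeq promoter windows of GRCm38.p6 were matched to the list by letters: at least 4 listed CpGs had to fall in a window with the right spacing and no wrong letter, and the shift between builds had to lie within 1000 bp of that of a neighbouring match. This left 1102 windows of 1016 genes. They held 15087 CpGs of the group, of which 2122 or 14.1% (13.5% to 14.6%) were listed, and 16336 others, of which 15.5% (14.9% to 16.03%) were. CpGs with A or T on both sides had 16.4% (14.7% to 18.1%) and MspI sites 16.9% (15.6% to 18.1%). Within the group, GCGC was lowest with 12.8% (11.9% to 13.7%), against 14.5% for GCGG and 14.9% for CCGC. Windows with fewer listed CpGs are not included, so these shares describe windows with several calls.

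**Figure D5:**
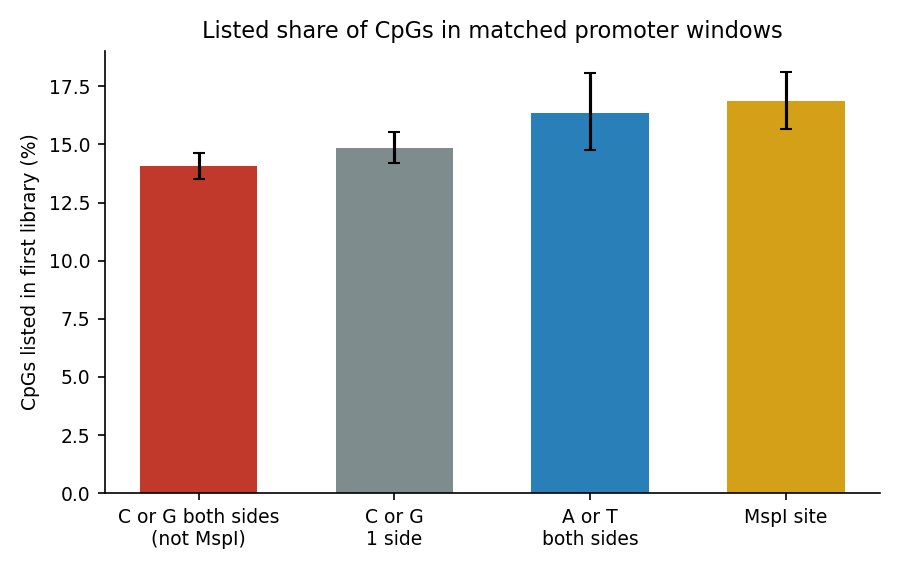
Percent of the CpGs in matched promoter windows that the first whole-genome library listed (y axis), by flanking bases (x axis); bars start at 0 and error bars are exact 95% binomial intervals. CpGs with C or G on both sides have the lowest share, 14.1%, and MspI sites the highest, 16.9%.

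Listed CpGs in these promoters were low. Of the 2122 in the group, 33.6% (31.6% to 35.7%) were at 0, the median was 9.48% and 2.21% reached 50% or more. The others in the same windows had 29.7% (27.9% to 31.5%) at 0 and a median of 10.3%. Elsewhere, 22.0% of the group were at 0, with a median of 11.3% and 6.16% at 50% or more. The 2 windows with the most listed CpGs of the group are printed, chosen after the values were seen, since they show how such CpGs are scattered in a promoter. The sequences are from RefSeq, 5′ to 3′ on the gene's strand, with the listed CpGs of the group in capitals.
Mbd6 (GRCm38.p6, chr10:127288832-127289131, minus strand): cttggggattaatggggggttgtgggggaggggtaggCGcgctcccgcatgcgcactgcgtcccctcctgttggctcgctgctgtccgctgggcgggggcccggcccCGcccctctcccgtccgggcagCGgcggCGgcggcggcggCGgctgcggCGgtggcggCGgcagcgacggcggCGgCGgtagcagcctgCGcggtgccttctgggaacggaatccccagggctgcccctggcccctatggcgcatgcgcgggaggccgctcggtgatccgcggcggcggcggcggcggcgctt
Tnfrsf11a (GRCm38.p6, chr1:105780473-105780772, plus strand): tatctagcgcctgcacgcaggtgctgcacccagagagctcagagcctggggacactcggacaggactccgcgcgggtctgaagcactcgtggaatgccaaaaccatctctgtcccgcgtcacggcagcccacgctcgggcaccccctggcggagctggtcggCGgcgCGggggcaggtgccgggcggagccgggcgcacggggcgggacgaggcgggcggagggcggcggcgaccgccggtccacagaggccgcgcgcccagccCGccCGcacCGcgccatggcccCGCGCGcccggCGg
Mbd6 encodes a protein with a methyl-CpG-binding domain. Of the 35 CpGs of the group in its window, 10 were listed, 6 of them at 0 and the highest at 24.8%, and the second library listed 2. Tnfrsf11a encodes RANK, the receptor through which osteoclasts are formed. There 9 of 28 were listed, with 3 at 0, a median of 7.84% and a highest level of 29.3%. None of the 9 was in the second library, and 1 was in the Tdg shRNA library.

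The 10 kb windows with the most CpGs of the group differed widely in level. Over 44138 windows with any, the median number was 1. On chromosome 17 from 39980001 to 39990000 there were 33, with a median level of 2.06%. From 3350001 to 3360000 on chromosome 12 there were 29, all in runs spaced 2 bp apart, with a median of 60.0%, none at 0, and 27 listed in the second library on the plus strand. Both of these windows were among the 12 with the most sites shared by the whole-genome libraries. Chromosome 17 from 5940001 to 5950000 had 28, of which 25 were in such runs, with a median of 54.6% and none at 0. Of these 28, the second library listed 5 on the plus strand and none on the minus strand. On chromosome 14 from 122870001 to 122880000, 15 of 23 were at 0, and the second library listed 12 on the minus strand and none on the plus strand. Chromosome 1 from 176940001 to 176950000 had 22 with a median of 9.28%, none at 0 and none in the second library.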

How the data were processed

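MAB-Seq libraries of E14 DNA were analysed as the authors deposited them, 1 list of CpG positions per library. The submitters' processing notes name Bismark 0.10.1, CASAVA 1.8 and the genome mm9. How sites were called and filtered, and at what depth, is not given in the sources used here. For the first whole-genome library and both shRNA libraries, the deposited values are percent levels. In the first, all values above 0 (100%) equal a fraction of 3 decimals corrected for a background of 3.0% (tolerance 1e-06). For the second whole-genome library the authors deposited a p-value per cytosine. Reads were recovered by matching upper binomial tails at 3.8% (up to 3000 reads, relative tolerance 1e-08), which matched 99.99% of p-values above 1e-07.

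From these lists, shares, medians and distances were computed in Python 3.11.15 with pandas 2.3.3, SciPy 1.17.1 and statsmodels 0.14.6. Positions were matched by exact base and strand, a minus-strand base being assigned to its CpG. Shares have exact Clopper-Pearson intervals, medians order-statistic intervals and differences of shares Newcombe intervals, all at 95% and for counting error only. The functions were tested on simulated lists. All 12 sequences of the group were described. Named were up to 8 CpGs listed in all 4 libraries with the lowest second-library p-value, up to 6 stretches with the most CpGs and the 5 windows of 10 kb with the most. The group, lists and rules were chosen with earlier results of these data known. No test between groups was run, since each kind of value had 1 library and sites are not replicates. Reads copied by PCR could not be told apart.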

Additional observations from a re-analysis of the deposited data

How the results depend on the processing

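All values here are differences in percentage points, the group (CpGs with C or G on both sides) minus the others, unless stated. Of 53 alternatives, 32 stayed within the interval of the main value and 21 left it. Plus-strand listing changed sign from an interval that excluded 0. The median level and Tdg shRNA differences also changed sign under some settings, but their main intervals included 0. The median level difference (0.10) was 0.82 without CpGs at 0, 0.21 against CpGs with A or T on both sides, -0.10 without GCGC, 0.31 without CCGC and -0.10 without CpGs with a listed CpG 2 bp away. The difference in the share at 0 (3.00) was 2.43 against CpGs with C or G on 1 side, 4.32 against A or T on both sides, 5.19 without GCGG and 1.29 without CCGC. For the nearest listed CpG (14.3 within 100 bp) it was 10.2 within 20 bp and 12.2 within 1000 bp. Listing in the second library on the plus strand (0.31) gave 0.587 on placed chromosomes, 1.30 within 10 bp and -0.73 without CpGs with a listed CpG 2 bp away. On the minus strand (0.511) it gave 0.0377 for p at or below 0.0001 and 1.08 within 10 bp. Within 100 bp, listing in the control shRNA library (0.114) gave 2.01 and in the Tdg shRNA library (-0.024) 1.33. The latter was 0.0227 without the dense windows and -0.154 against A or T on both sides. For CpGs of the group in runs of 4 or more minus the rest of the group, the median (24.1) was 30.7 without CpGs at 0 and 20.5 without runs of 10 or more, and plus-strand listing (27.8) was 32.9 and 22.4. The cause of these shifts was not tested. These last alternatives, and those on CpGs 2 bp apart, were added after the data had been seen. Leaving out a replicate was not run, since each kind of value had 1 library. No paired analysis was possible because the groups share fewer than 2 replicate numbers. Depth is unknown for the first whole-genome and both shRNA libraries, so an unlisted CpG may be uncovered.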
